A study of Homo sapiens with 4 samples.

Results

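The B-lineage transcription factors examined here are the 10 genes *PAX5*, *EBF1*, *TCF3*, *IKZF1*, *IKZF3*, *FOXO1*, *LEF1*, *SOX4*, *IRF4* and *IRF8*, chosen by name. They are 10 of the 17721 genes that could be named on the array, and 17 of its 41000 probes carry the accession of a transcript of these genes. The cells were Nalm-6, an established human pre-B cell line from a leukemia, cultured without hemin. Total RNA of wild-type (WT) cells, of Arp5 KO cells, of Arp8 KO cells and of cells labelled as Arp8 overexpression was hybridized to single-color Agilent arrays, with 1 array for each. The loci of Arp5 and Arp8 had been disrupted by homologous recombination, in Arp5 KO cells on both alleles, and the overexpression is described as coming from an incorporated tetracycline-regulated (Tet-Off) system in connection with the Arp8 KO cells. Each genotype is represented by 1 array, so that genotype, clone and culture cannot be told apart, no difference has a replicate check, and no p-value is given. The labels do not say whether the Arp8 KO cells and the cells labelled as Arp8 overexpression come from the same line.

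Arp5 and Arp8 are actin-related subunits of INO80, a complex that slides and edits nucleosomes. B-cell development is driven by a small network of transcription factors, in which *TCF3* and *EBF1* open the program, *PAX5* fixes it by switching on B-cell genes and silencing those of other lineages, and Ikaros family, FOXO and interferon regulatory factors move the cells from the pro-B to the pre-B stage and on to light-chain rearrangement. *LEF1* and *SOX4*, a pair of HMG-box factors, support survival and growth of early B cells.

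The targeted genes were read as a check of the labels. *ACTR5*, which encodes Arp5, gave processed signals of 1909 units in WT, 65.3 in Arp5 KO, 1849 in Arp8 KO and, on the array labelled as Arp8 overexpression, 2088. For the gene of Arp8, *ACTR8*, the signals were 1092, 993, 785 and 679 units in the same order with probe A_23_P80694, and 2149, 2233, 1654 and 1857 with A_24_P131697. *ACTR5* was thus low only in Arp5 KO cells among these 4 arrays, whereas *ACTR8* was below WT on both Arp8 arrays with both probes, the array labelled Arp8 overexpression included. *ACTR8* kept most of its WT signal in Arp8 KO cells, and with A_23_P80694 it was lower still on the array labelled Arp8 overexpression. Whether the *ACTR8* probes lie in the disrupted part was not examined, so that these values settle neither Arp8 label. The identity of the cells was read from markers: 9 of 9 measured pre-B markers were well above background on the 4 arrays, with summed signals of 342943 units in WT, 351097 in Arp5 KO, 345848 in Arp8 KO and 368274 on the array labelled Arp8 overexpression, of which *IGLL1* was the brightest.

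All 17 probes of the 10 factors were well above background on all 4 arrays, and none was marked as an outlier spot, so that no member was lost to a filter. Values are given as processed signals in the scanner's units and as log2 ratios after each array was set to its 75th percentile. The error estimate of the scanner software gives a log2 ratio an error of 0.20 for most of these probes. For bright probes it was a near-constant fraction of the signal, such as 5390 of 53901 units for *SOX4* probe A_23_P82169 in WT. It is therefore no spread measured for each probe, and a ratio larger than it has not passed a test. For 264 probes printed as 10 spots each, the median SD of a log2 ratio of Arp8 KO to WT was 0.07 above 500 units, 0.10 from 50 to 500 units and 0.32 from 10 to 50 units. These errors hold no variation between cultures, and the number of arrays limits the precision.

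Among the 17 probes, 15 ranged over less than 1 on the log2 scale across the arrays, between 0.21 and 0.87, and 2 ranged over more. The wider ones were those of *IRF8* and *IKZF3*, at 1.26 and 1.78, but with normexp background correction they ranged over 0.58 and 0.62. Among the 27921 probes of the array that were well above background throughout, the median range was 0.38 and 8.12% reached 1 or more. A ratio was counted as beyond 2-fold when it passed that threshold and the brighter array was well above background. In Arp5 KO over WT cells 1 of 17 probes was beyond 2-fold, that of *IRF8*, against 2.32% of all probes. In Arp8 KO over WT cells 1 of 17 was, that of *IKZF3*, against 3.54%. On the array labelled Arp8 overexpression none of the 17 was beyond 2-fold over WT, against 4.24%, with *IKZF3* just inside at -0.99. In bulk RNA, fewer cells of a type and less RNA per cell cannot be told apart.

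**Figure D1:**
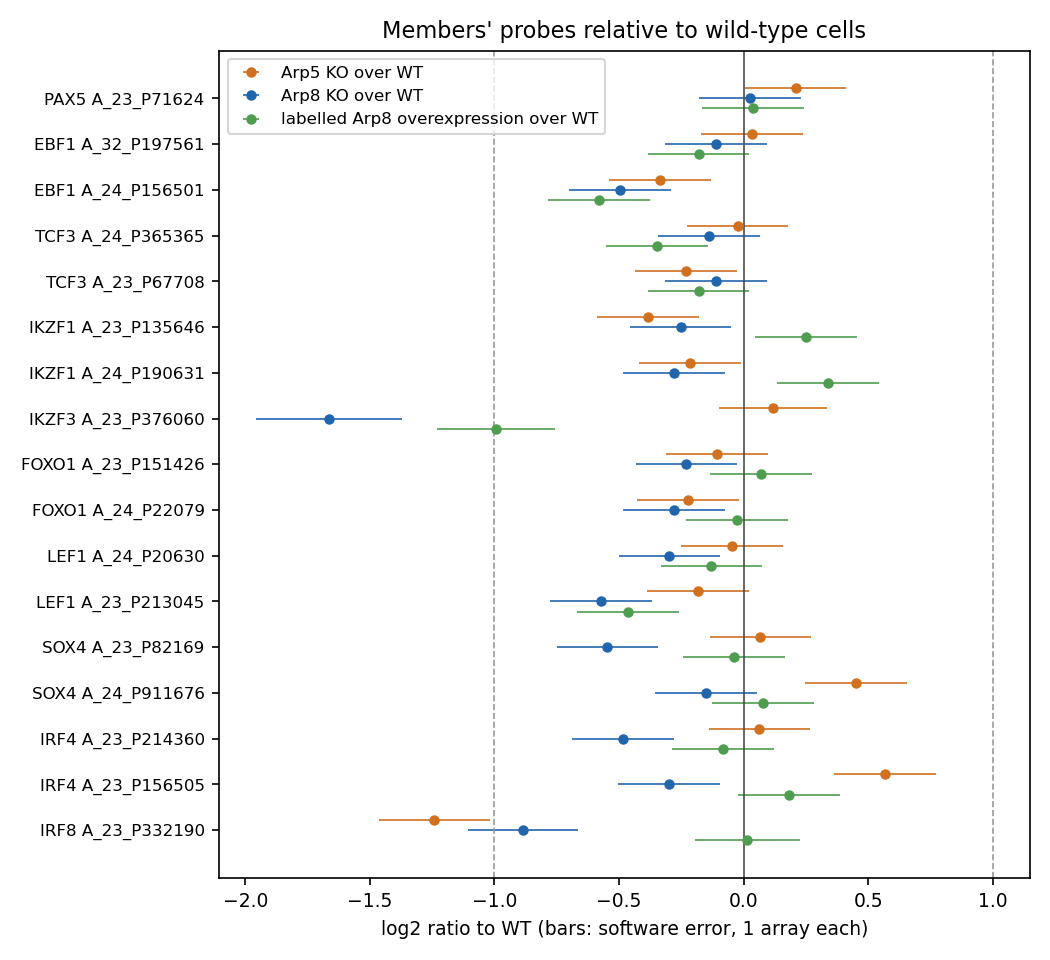
Log2 ratios to WT of the 17 probes of the 10 factors (points, 1 array each) with the error of the ratio from the scanner software (bars), for Arp5 KO, Arp8 KO and the array labelled Arp8 overexpression, and dashed lines at 2-fold. *IRF8* in Arp5 KO cells (-1.24) and *IKZF3* in Arp8 KO cells (-1.66) lie beyond the lines, and the blue points of Arp8 KO cells lie left of 0 for 16 of the 17 probes.

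*TCF3*, *EBF1* and *PAX5* start and hold B-cell commitment. *TCF3*, the gene of the E proteins E12 and E47, gave 74026 units in WT, 71660 in Arp5 KO, 68002 in Arp8 KO and 59059 on the array labelled Arp8 overexpression with probe A_24_P365365. Its other probe, A_23_P67708, gave 56833, 47656, 53254 and 50930 units in the same order. WT was the highest of the 4 arrays with both probes, and the log2 ratios to WT lay between -0.35 and -0.02.

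*EBF1*, the early B-cell factor, gave 18998 units in WT, 19159 in Arp5 KO, 17788 in Arp8 KO and 17031 on the array labelled Arp8 overexpression with probe A_32_P197561. Probe A_24_P156501 gave 3652, 2850, 2620 and 2481 units. Both probes were lowest on the array labelled Arp8 overexpression and next lowest in Arp8 KO cells. They differed in size: the log2 ratios of Arp8 KO to WT were -0.11 and -0.50, and those of Arp5 KO to WT were 0.03 and -0.34, on either side of 0. The only *PAX5* probe gave 261 units in WT, 297 in Arp5 KO, 269 in Arp8 KO and 272 on the array labelled Arp8 overexpression. Its range was the narrowest of the 17 probes at 0.21, which is about the software error of a ratio. Under median scaling *EBF1* ranged less than *PAX5* by its brightest probe, at 0.13 against 0.16, and without scaling at 0.17 against 0.19. The SD between repeated spots at the brightness of *PAX5* was smaller, at 0.10. Both errors are those of a single ratio and hold no variation between cultures, so that whether *PAX5* differed cannot be decided from them.

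*IKZF1* and *IKZF3* encode the zinc-finger factors Ikaros and Aiolos, which act in the pre-B stage to end the proliferation driven by the pre-B receptor. *IKZF1* gave 1306 units in WT, 985 in Arp5 KO, 1109 in Arp8 KO and 1578 on the array labelled Arp8 overexpression with probe A_23_P135646, and 1004, 851, 837 and 1291 with A_24_P190631. With both probes the KO cells lay below WT and the array labelled Arp8 overexpression above it. The log2 ratios of Arp8 KO to the array labelled Arp8 overexpression were -0.50 and -0.62, and those of both KO lines to WT lay between -0.38 and -0.22.

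*IKZF3* showed a different pattern. Its probe A_23_P376060 gave 50.2 units in WT, 53.7 in Arp5 KO, 16.0 in Arp8 KO and 25.6 on the array labelled Arp8 overexpression, with software errors of 5.35, 5.66, 2.76 and 3.23 units. WT and Arp5 KO cells were high and did not differ beyond that error, both Arp8 arrays were low, and Arp8 KO cells were the lowest. The log2 ratio to WT was -1.66 in Arp8 KO cells (error 0.29), a 3.17-fold lower signal, against -0.99 on the array labelled Arp8 overexpression (error 0.24). Between Arp8 KO and the array labelled Arp8 overexpression it was -0.67 (error 0.31). Arp5 KO over Arp8 KO gave 1.78, and *IKZF3* was the only member beyond 2-fold in that comparison, 1 of 17 probes against 3.13% of all probes. In the comparison of Arp8 KO with the array labelled Arp8 overexpression no member was beyond 2-fold, against 1.86%. With normexp background correction and an offset of 50 units on the median signal, the ratio of Arp8 KO to WT was -0.56 and no longer beyond 2-fold, and that of the array labelled Arp8 overexpression was -0.40.

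The interferon regulatory factors *IRF8* and *IRF4* act together in pre-B cells to permit light-chain rearrangement, and *IRF8* is also a factor of myeloid cells and germinal center B cells. *IRF8* probe A_23_P332190 gave 80.8 units in WT, 33.6 in Arp5 KO, 44.3 in Arp8 KO and 82.9 on the array labelled Arp8 overexpression, with software errors of 8.32, 3.87, 5.03 and 8.55 units. Both KO lines were low, and WT and the array labelled Arp8 overexpression were high and within the error of each other. The log2 ratio to WT was -1.24 in Arp5 KO cells (error 0.22), or 2.37-fold lower, and -0.88 in Arp8 KO cells (error 0.22), whereas it was 0.01 on the array labelled Arp8 overexpression. Arp8 KO cells lay below the array labelled Arp8 overexpression by the same measure at -0.90. The KO lines differed from each other by -0.36 (Arp5 KO over Arp8 KO, error 0.23). After normexp with the offset of 50 units, the ratio of Arp5 KO to WT was -0.57, within 2-fold, and that of Arp8 KO to WT was -0.41.

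**Figure D2:**
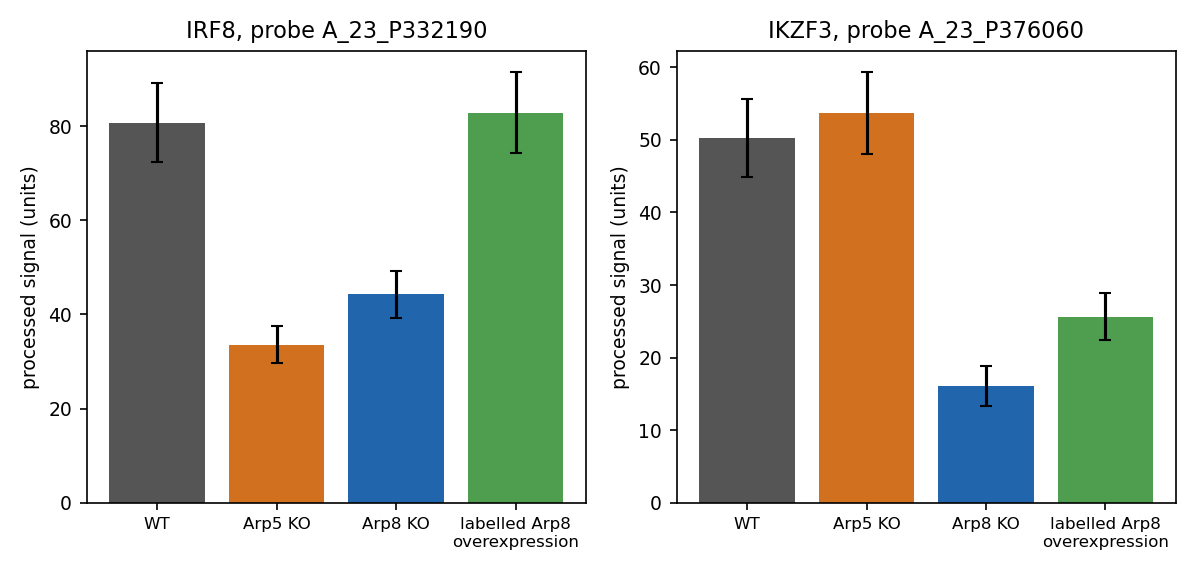
Processed signal in scanner units of the probes of *IRF8* (left) and *IKZF3* (right) on the 4 arrays, with bars from 0 and error bars of 1 software error. *IRF8* is low in both KO lines (33.6 and 44.3 units) and *IKZF3* is low on both Arp8 arrays (16.0 and 25.6 units).

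Both probes are dim, and dim probes scatter more. Among probes whose brighter signal lay between 40 and 100 units, a range chosen after the members' values were seen, 2.42% were lower beyond 2-fold in Arp5 KO over WT cells. Of the members only the 2 probes of *IRF8* and *IKZF3* lay in this range, and 1 of the 2 was lower beyond 2-fold there, that of *IRF8*. The share was 4.28% for Arp8 KO over WT, where 1 of the 2 was, that of *IKZF3*, and 6.36% for the array labelled Arp8 overexpression over WT, where none was. Because the range was chosen with the values of both probes known, these counts beside the shares are not a test. Set among all probes in a bin of 1 log2 unit of mean signal, *IRF8* in Arp5 KO cells lay below the lower bound of -0.94 that holds the central 95% of 2270 probes, and *IKZF3* in Arp8 KO cells lay below that of -1.37 for 2163 probes. *SOX4* probe A_23_P82169 in Arp8 KO cells, at -0.55 against a bound of -0.53, and *TCF3* probe A_24_P365365 on the array labelled Arp8 overexpression, at -0.35 against -0.26, also lay just outside. The other members' probes lay inside in each comparison with WT.

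**Figure D3:**
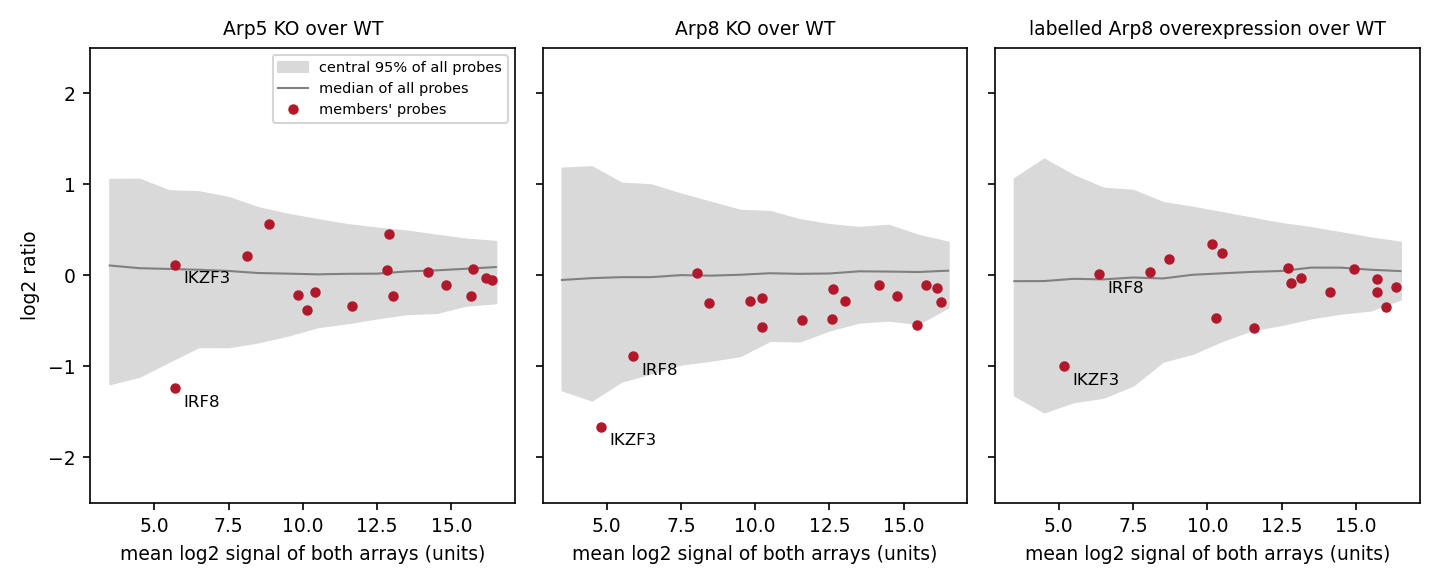
Log2 ratio to WT against the mean log2 signal of both arrays, for Arp5 KO (left), Arp8 KO (middle) and the array labelled Arp8 overexpression (right). Red points are the 17 probes of the factors. The grey line is the median of all probes in bins of 1 log2 unit and the grey band their central 95%. *IRF8* at -1.24 (left) and *IKZF3* at -1.66 (middle) lie below the band. *SOX4* at -0.55 (middle) and *TCF3* at -0.35 (right) lie just below it.

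*SOX4* gave 53901 units in WT, 55612 in Arp5 KO, 37343 in Arp8 KO and 53314 on the array labelled Arp8 overexpression with probe A_23_P82169, and 6549, 8809, 5971 and 7021 with A_24_P911676. *IRF4*, which is also needed later in plasma cells, gave 7276, 7484, 5264 and 6978 units in the same order with probe A_23_P214360. Its probe A_23_P156505 gave 387 units in WT, 564 in Arp5 KO, 318 in Arp8 KO and 446 on the array labelled Arp8 overexpression. All 4 probes of *SOX4* and *IRF4* were highest in Arp5 KO and lowest in Arp8 KO cells. The log2 ratios of Arp5 KO to Arp8 KO were 0.61 and 0.60 for *SOX4* and 0.55 and 0.87 for *IRF4*. Each is larger than the software error of 0.20, which is not a test. Against WT the probes of a gene split the difference in different ways. For *SOX4* the ratios were 0.07 and 0.45 in Arp5 KO cells against -0.55 and -0.15 in Arp8 KO cells. For *IRF4* they were 0.06 and 0.57 in Arp5 KO cells against -0.48 and -0.30 in Arp8 KO cells. On the array labelled Arp8 overexpression the ratios to WT of both genes lay between -0.08 and 0.18, smaller in size than the software error of 0.20.

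*LEF1*, which carries Wnt signals and marks early B cells, gave 86062 units in WT, 82047 in Arp5 KO, 70839 in Arp8 KO and 79939 on the array labelled Arp8 overexpression with probe A_24_P20630, and 1449, 1256, 986 and 1067 with A_23_P213045. Both probes were highest in WT and lowest in Arp8 KO cells, at log2 ratios to WT of -0.30 and -0.57. Arp5 KO cells were closest to WT, at -0.05 and -0.18. *FOXO1*, the forkhead factor that turns on the RAG genes and the IL-7 receptor, gave 30044 units in WT, 27440 in Arp5 KO, 25930 in Arp8 KO and 32041 on the array labelled Arp8 overexpression with probe A_23_P151426, and 9182, 7745, 7655 and 9159 with A_24_P22079. Both probes were lower in the KO lines than on the other 2 arrays. The log2 ratios to WT were -0.11 and -0.22 for Arp5 KO and -0.23 and -0.28 for Arp8 KO. These sizes are close to the software error of a ratio and above the SD of 0.07 between repeated spots above 500 units. Neither error holds variation between cultures.

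**Figure D4:**
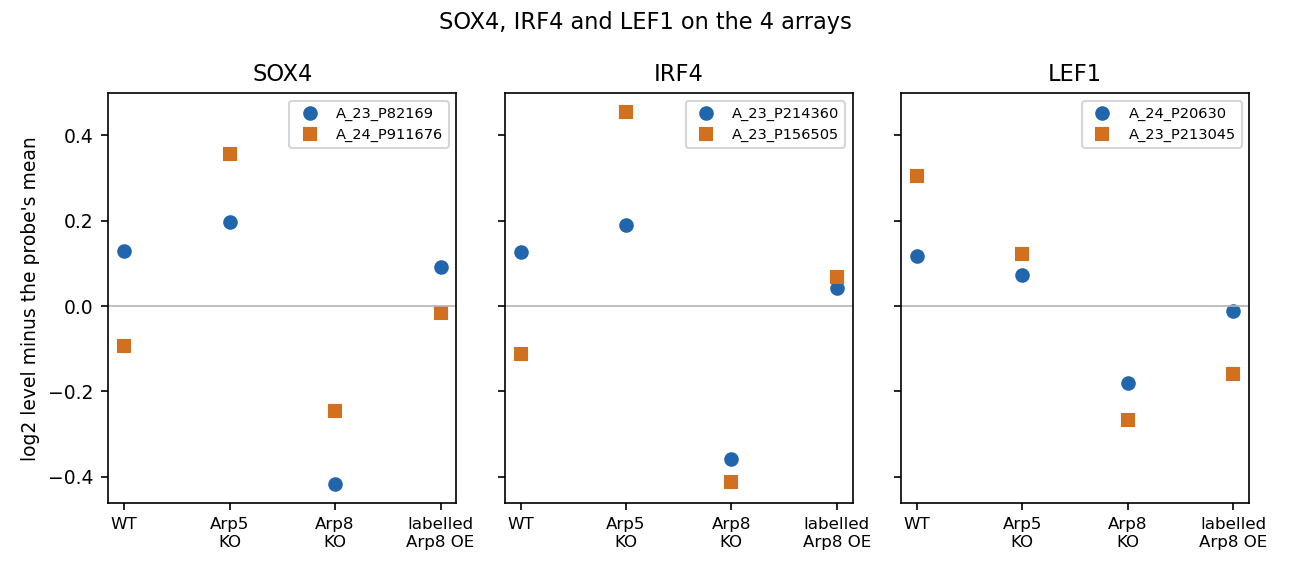
Log2 level of each probe of *SOX4*, *IRF4* and *LEF1* minus its mean over the 4 arrays (OE, overexpression), with circles for the brighter and squares for the dimmer probe of a gene and 1 array for each point. Every probe is lowest in Arp8 KO cells, and those of *SOX4* and *IRF4* are highest in Arp5 KO cells.

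*SOX4* and *IRF4* shared their highest and lowest array, and their promoters are shown for this reason, a choice made after the values were seen. WT and the array labelled Arp8 overexpression changed places between the probes of each gene. The sequences are the 250 bases before the start of each gene in the RefSeq promoter table of assembly GRCh38.p14, both on the plus strand. Capitals mark the letters GGGAA, the core recognized by Ikaros family factors, or their reverse complement. The *IRF4* sequence lies at chr6:391502-391751 and that of *SOX4* at chr6:21593501-21593750.
IRF4: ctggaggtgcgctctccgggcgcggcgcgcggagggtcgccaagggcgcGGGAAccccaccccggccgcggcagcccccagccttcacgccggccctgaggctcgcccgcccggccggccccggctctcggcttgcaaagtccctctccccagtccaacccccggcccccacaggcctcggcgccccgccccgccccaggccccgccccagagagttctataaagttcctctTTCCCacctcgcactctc
SOX4: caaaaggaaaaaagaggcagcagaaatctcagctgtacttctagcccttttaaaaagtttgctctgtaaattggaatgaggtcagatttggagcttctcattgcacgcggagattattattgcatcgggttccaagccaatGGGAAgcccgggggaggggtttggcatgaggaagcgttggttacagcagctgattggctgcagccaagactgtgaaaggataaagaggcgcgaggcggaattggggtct

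The *IRF4* promoter holds 2 matches, which begin at -201 on the plus and -18 on the minus strand relative to the start, and 76.0% of its bases are G or C. The *SOX4* promoter holds 1, at -109, which shares 4 letters with a match to the ETS core GGAAG, and has 48.8% G or C. Of all 35116 windows of this length in the table, 59.0% hold at least 1 match to GGGAA and 24.1% hold 2 or more, and their median G or C content is 58.0%. Such matches are common and only describe the letters.

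Taken over the list, 16 of the 17 probes and 9 of the 10 genes by their brightest probe lay below 0 in Arp8 KO over WT cells, where 48.7% of all probes did, and *PAX5* at 0.02 was the exception. This count was 16 under every other scaling and source of values tried. That is a weak check, since these moved the median ratio of all probes by at most 0.04. The negative member ratio nearest to 0 was -0.11, that of *TCF3* probe A_23_P67708. The median log2 ratio of the 10 genes was -0.28 in Arp8 KO over WT cells against 0.01 over all probes, 0.01 in Arp5 KO over WT against 0.04, while the array labelled Arp8 overexpression gave -0.06 against 0.01. Arp8 KO was the lowest array for 10 of the 17 probes, against 23.2% of all probes, and the highest for none, against 23.4%. Median scaling made it lowest for 8. Most of these differences are small. Beyond 1.5-fold there were 2 of 17 probes in Arp8 KO over WT cells, against 12.2% of all probes, 1 in Arp5 KO over WT, against 8.89%. The array labelled Arp8 overexpression had 1 over WT, against 13.2%. In Arp8 KO over the array labelled Arp8 overexpression 3 of 17 passed 1.5-fold, against 8.44%, and in Arp5 KO over Arp8 KO 4 of 17, against 10.9%.

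For the 7 genes with 2 probes, the log2 ratios to WT of a pair differed by a median of 0.18, and at most by 0.50 for *IRF4* in Arp5 KO cells. In 4 of 21 such pairs of ratios the signs were opposite, for *EBF1* in Arp5 KO cells and for *FOXO1*, *SOX4* and *IRF4* on the array labelled Arp8 overexpression. The brightest probes in these pairs were near 0, at 0.03, 0.07, -0.04 and -0.08. Those of *EBF1*, *FOXO1* and *SOX4* took the other sign under some alternative processing, so that these opposite signs are not stable. *IRF8*, *IKZF3* and *PAX5* have 1 probe each, with 1 spot, so that their ratios cannot be compared between probes.

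The promoter table holds windows for 9 of the 10 genes, *IKZF3* not among them, and those of *EBF1*, *IKZF1*, *LEF1* and *IRF8* lie at starts other than the outermost start of the gene table. On either strand of these windows, from 250 bases before to 50 after a start, GGGAA was present for 7 of the 9 genes and in 65.0% of all windows, and the ETS core GGAAG for 6 and in 71.9%. The LEF1 and SOX core CTTTG was present for 4 of the 9 genes and in 47.5% of windows, and the E-box CAGGTG for 1 and in 20.6%. The IRF element GAAANNGAA was found for 1 gene, *FOXO1*, and in 8.11% of windows, and the FOXO motif GTAAACA for none and in 3.42%. Genes have different numbers of windows in this table, so that these counts are not rates.

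The genes closest in pattern to the wide-ranging members were taken by the root mean square difference of the 4 centred log2 levels, over 1307 named probes with a range of 1 or more. For *IKZF3* these were *CTNNAL1*, *PTGDR* and *PLXNA1*, at differences of 0.12, 0.14 and 0.15. *PTGDR*, a prostaglandin D2 receptor, gave 1758 units in WT, 1938 in Arp5 KO, 449 in Arp8 KO and 801 on the array labelled Arp8 overexpression, so that both Arp8 arrays were low. For *IRF8* they were *COPZ1*, *SEPTIN1* and *CKLF*, at 0.05, 0.07 and 0.09. *COPZ1*, a coat protein of Golgi vesicles, gave 12387 units in WT, 5237 in Arp5 KO, 6355 in Arp8 KO and 11911 on the array labelled Arp8 overexpression, low in both KO lines. With 4 arrays many probes share any such order, and with normexp neither member would have had the range that selected it.

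Lists of genes that work with or under these factors were read in the same way, by the brightest probe of each gene. Their counts beyond 2-fold over WT stand beside shares of all probes of 2.32% for Arp5 KO, 3.54% for Arp8 KO and 4.24% for the array labelled Arp8 overexpression. Of 21 measured relatives in the same families (among those not well above background were *EBF2*, *TCF7L1* and *SOX11*), 2 were higher and none lower beyond 2-fold in Arp5 KO over WT cells, none passed in Arp8 KO cells, while 1 was lower on the array labelled Arp8 overexpression. These were *ID2*, an inhibitor of E proteins such as *TCF3*, with 2075 units in WT and 5775 in Arp5 KO cells, *EBF3* at a log2 ratio of 1.20 in Arp5 KO cells, and *ID1*, another such inhibitor, at -1.12 on the array labelled Arp8 overexpression. Of 21 other early B-cell regulators 2 were higher in Arp5 KO over WT cells, the quiescence factor *KLF2* at 2.35 and the octamer factor *POU2F2* at 1.21, and none passed in Arp8 KO cells. On the array labelled Arp8 overexpression *POU2F2* was higher at 1.51 and *ERG* lower at -1.06. With normexp *EBF3* was at 0.82 and *POU2F2* at 0.69 and 0.91, all within 2-fold.

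Of 13 measured regulators of other lineages and late B cells, with *GATA1* among those too dim, 1 was higher and 2 lower in Arp5 KO over WT cells, 2 lower in Arp8 KO cells, while 1 was lower on the array labelled Arp8 overexpression, beside the shares of all probes of 2.32%, 3.54% and 4.24%. *BCL6*, a repressor that protects pre-B and germinal center cells from DNA damage responses, gave 4822 units in WT, 1794 in Arp5 KO, 1037 in Arp8 KO and 2246 on the array labelled Arp8 overexpression, or log2 ratios of -1.40, -2.23 and -1.13. *SPI1*, the factor PU.1 that partners *IRF4* and *IRF8* on DNA, was at -1.20 for Arp5 KO and -0.37 for Arp8 KO, and *PRDM1*, the plasma cell factor Blimp-1, at 1.11 and 0.48. With normexp *SPI1* and *PRDM1* were within 2-fold in Arp5 KO cells, at -0.84 and 0.60. *GATA2* gave 25.4 units in WT and 9.74 in Arp8 KO cells (error 2.29), where it was not well above background, and with normexp its log2 ratio was -0.28 in place of -1.40, so that the size of this difference is uncertain.

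Of 14 genes activated by *PAX5*, *EBF1* and *TCF3*, none passed 2-fold in Arp5 KO over WT cells or on the array labelled Arp8 overexpression, and 2 were lower in Arp8 KO over WT cells. Over all probes 2.32%, 4.24% and 3.54% passed in these comparisons, and with lists of 7 or 14 genes a count of none says little. The lower ones were *CD22*, an inhibitory receptor of B cells, at -1.78, and *VPREB3*, a chaperone-like protein of the pre-B receptor, at -1.20. The medians of the 14 were -0.24, -0.21 and 0.15 in Arp5 KO, Arp8 KO and the array labelled Arp8 overexpression. Of 14 measured *FOXO1* targets, *KLF2* was higher in Arp5 KO cells, *SESN1* higher at 1.40 and *IL7R*, the IL-7 receptor chain, lower at -1.10 in Arp8 KO cells, and none passed on the array labelled Arp8 overexpression. None of 7 measured *LEF1* targets, without the dim *NKD1*, *RNF43* and *DKK1*, passed in any comparison with WT, and their medians were -0.29, -0.41 and -0.24 in the same order.

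**Figure D5:**
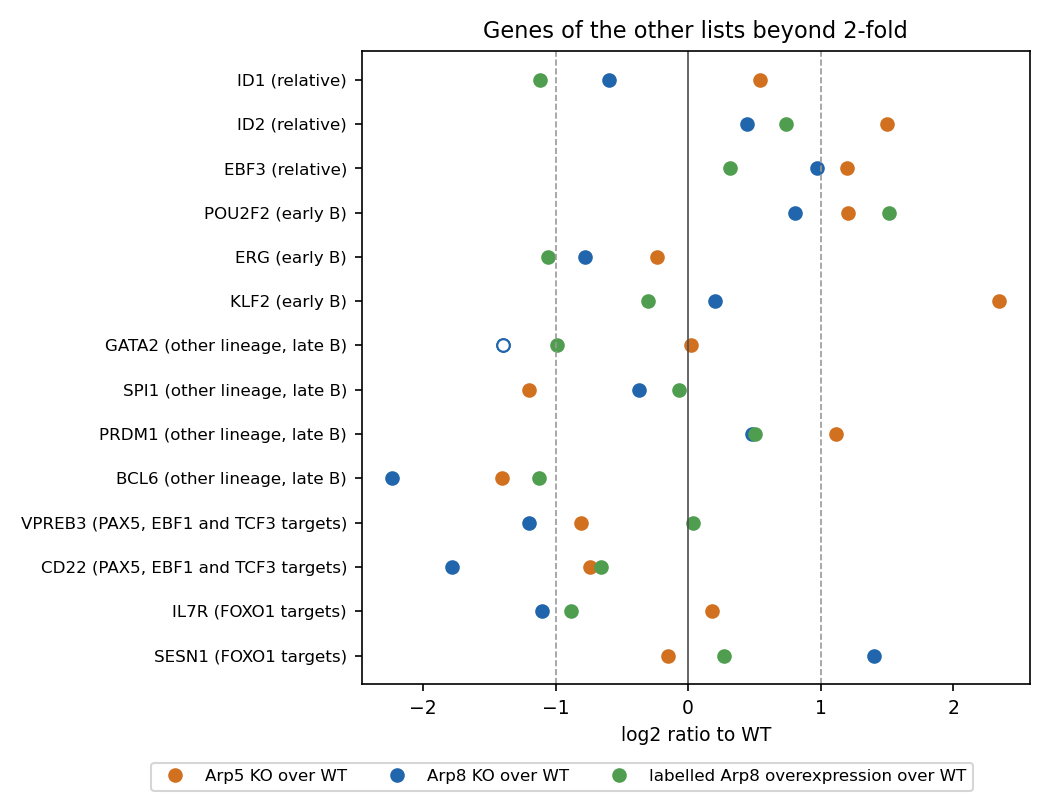
Log2 ratios to WT of the genes of the other lists, markers aside, that were beyond 2-fold (dashed lines) on at least 1 array, by their brightest probe, with the list of each gene in parentheses and an open circle where *GATA2* was not well above background. *KLF2* at 2.35 in Arp5 KO cells and *BCL6* at -2.23 in Arp8 KO cells are the ends of the range shown.

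Markers of other cells were read beside these ratios. The 7 myeloid markers summed to 821 units in WT, 1072 in Arp5 KO, 3156 in Arp8 KO and 2042 on the array labelled Arp8 overexpression, and most of each sum was *CD33*, with 587, 854, 2792 and 1703 units. The log2 ratios of Arp8 KO and of the array labelled Arp8 overexpression to WT were 2.23 and 1.51 for *CD33*, 1.35 and 1.31 for *LYZ*, 0.53 and 1.17 for *CSF1R* and 0.94 and 0.50 for *ITGAM*. *CD14* differed from these, at 0.02 and -0.14. With normexp *LYZ* was at 0.72 and 0.64, and *CSF1R* at 0.12 on the array labelled as Arp8 overexpression, so that these were within 2-fold. *MPO* and *FCGR3A* of the same list were not well above background on any array, and the part of the myeloid markers in the results was not tested. The 5 T cell markers summed to 85.2, 83.2, 81.6 and 85.7 units in the same order of arrays, with *CD3E* the brightest and *CD3D*, *CD3G* and *TRAT1* not well above background. The 4 plasma cell markers summed to 36757, 28389, 26131 and 40957 units, led by *MZB1*. In Arp8 KO cells and then on the array labelled as Arp8 overexpression, each against WT, *MZB1* was at -0.98 and 0.09, *TNFRSF17* at -1.90 and 1.01 (with normexp -1.14 and 0.81), *PRDM1* at 0.48 and 0.51 and *SDC1* at 0.18 and 0.21.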

How the data were processed

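Total RNA from 4 Nalm-6 samples was labelled with Cy3. The authors deposited the scanner output of Agilent Feature Extraction 10.5.1.1, whose processed signal is a background-subtracted intensity that is not scaled between arrays, with other columns of marks for outlier spots and spots well above background. They also deposited a table of intensities, found to equal the processed signal times 1 factor per array, with column medians of 127 for WT, 128 for Arp5 KO, 122 for Arp8 KO and 119 for the array labelled Arp8 overexpression. All 4 arrays were on 1 slide. The log2 processed signal was taken minus that of the 75th percentile of the 43376 spots that are not controls. Spots marked as outliers were dropped and the spots of a probe averaged. Where an array was not well above background, a signal below the lowest of probes well above background (7.76 units in WT, 6.90 in Arp5 KO, 9.44 in Arp8 KO, 8.87 on the array labelled Arp8 overexpression) was raised to it. Between 30394 and 31420 spots per array were well above background, and 0 were saturated.

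Accessions matched the gene table of GRCh38.p14 for 26222 of 41000 probes (64.0%), which gave names and neighbours only, since the array grid is older. The members and lists were chosen with earlier results of these data known. The text names all members, ACTR5 and ACTR8, genes of the other lists beyond 2-fold over WT, and the 3 genes closest in pattern to a member ranging over 1 or more. It also names some cell type markers, some genes too dim to measure, *BLK*, *FCRLA* and the neighbouring genes, whatever their ratio to WT. Bins of brightness, the range of 40 to 100 units and neighbouring genes were chosen after seeing the data. Normexp could not be run on the mean signal and was run on the median signal (limma 3.58.1, R 4.3.3), as no mean signal is among the scanner columns read. The rest ran in Python 3.11.15 with numpy 2.4.6, pandas 2.3.3 and matplotlib 3.10.9, and the ratio step was tested on simulated data. Protein identity within families was not analysed here.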

Additional observations from a re-analysis of the deposited data

How the results depend on the processing

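No paired analysis was possible, since a genotype is a single array here. Alternatives were other scalings, the authors' table, normexp with an offset of 50 units, other filters on dim probes, outlier spots kept, other fold thresholds and counting by gene. The member beyond 2-fold was *IRF8* in Arp5 KO over WT cells and *IKZF3* in Arp8 KO over WT and in Arp5 KO over Arp8 KO cells under each alternative scaling, the authors' table and with outlier spots kept. With normexp the count of members beyond 2-fold was 0 in each of these 3 comparisons. That setting altered the signal read, the background correction and the offset together, and their shares were not tested. An offset of 50 units by itself pulls ratios of signals near that size towards 0, and *IKZF3* gave 50.2 units in WT. Loss of a call under normexp therefore does not show whether a dim gene differed. At 3-fold the count was 0 in Arp5 KO over WT. At 1.5-fold it was 2 in Arp8 KO over WT, 1 on the array labelled Arp8 overexpression over WT, 3 in Arp8 KO over that array and 4 in Arp5 KO over Arp8 KO. On the array labelled Arp8 overexpression over WT it was 1, *IKZF3*, when the percentile came from probes well above background only and with the authors' table, because the ratio lies at the threshold. The median log2 ratios of the members moved by less than 0.07 under each alternative run. Of 180 ratios to WT of the members' brightest probes under alternatives, 9 had another sign than in the main setting, and none of these was larger than 0.07 there. Of the 26 ratios to WT beyond 2-fold of members and of named genes of the other lists, 12 were within 2-fold under some alternative, all of them under normexp (*IRF8*, *IKZF3*, *EBF3*, *POU2F2* on 2 arrays, *GATA2*, *SPI1*, *PRDM1*, *LYZ* on 2 arrays, *CSF1R* and *TNFRSF17*), and 1 of these, that of *TNFRSF17* on the array labelled Arp8 overexpression, also under others. None of the 26 had its sign turned. Ratios of single genes between the other arrays were not followed in this way.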

Other observations

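The genes beside *IRF8* and *IKZF3* were looked at after the values of both were seen, as the 3 nearest protein-coding genes on each side in the gene table. Beside *IKZF3*, the genes *ERBB2*, *MIEN1*, *GRB7*, *GSDMB* and *ORMDL3* were within 2-fold of WT on each of the other arrays, and *ZPBP2* was not well above background. *ORMDL3*, a regulator of sphingolipid synthesis, was at log2 ratios of 0.16 in Arp5 KO, -0.08 in Arp8 KO and 0.20 on the array labelled Arp8 overexpression, whereas *IKZF3* was at 0.12, -1.66 and -0.99. Beside *IRF8*, the genes *EMC8*, *COX4I1*, *FOXF1*, *MTHFSD* and *FOXC2* were within 2-fold of WT on each array. *C16orf74* gave 112 units in WT, 82.9 in Arp5 KO, 111 in Arp8 KO and 323 on the array labelled Arp8 overexpression, which is beyond 2-fold over WT.

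Some targets of *PAX5*, *EBF1* and *TCF3* lay lower in Arp8 KO cells than on the array labelled Arp8 overexpression. Of the 14, 4 were lower beyond 2-fold and none higher, and 1.86% of all probes were beyond 2-fold in either direction in this comparison. Of the 4 plasma cell markers, 2 were also lower beyond 2-fold there, *TNFRSF17* at -2.91 and *MZB1* at -1.07, and their part in the difference was not tested. The 4 targets were *VPREB3* at -1.24, the Src family kinase *BLK* at -1.21, *CD22* at -1.12 and *FCRLA* at -1.11, of which *BLK* and *FCRLA* were named after their values were seen. *BLK* gave 5932 units in WT, 4348 in Arp5 KO, 3652 in Arp8 KO and 8486 on the array labelled Arp8 overexpression, and *FCRLA* gave 9316, 6395, 7672 and 16657. On the same arrays *PAX5* differed by -0.01, *EBF1* by 0.07 and *TCF3* by 0.21 with their brightest probes.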
